A study of Mus musculus with 15 samples.

Results

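The transcripts of the proteasome were followed through the differentiation of mouse B cells into plasmablasts. Every gene whose symbol begins with Psma, Psmb, Psmc, Psmd, Psme, Psmf or Psmg and a number was taken if it had reads in at least 3 columns, which gave 49 of the 21669 genes with a symbol. Of these, 48 are proteasome genes, and *Psmc3ip*, which matched by its symbol alone, codes for a recombination factor and is described apart. RNA-seq libraries came from female C57BL/6J wild-type mice and were made from poly(A) RNA. Naive B cells (nB) were splenic cells left after depletion of CD43+ cells, and were neither stimulated nor treated with a drug. The same kind of cells was cultured ex vivo for 3 days with LPS, IL2 and IL5, and either DMSO, the vehicle, or GSK343, an inhibitor of the histone methyltransferase EZH2. From these cultures, activated B cells (actB) were sorted as B220+GL7+CD138- and plasmablasts (Pb) as CD138+ cells. The sample labels of Pb with GSK343 name IL6 in place of IL5, so that the drug and the cytokine cannot be told apart in that group if these labels hold. There were 3 libraries in each of the 5 groups, but the first 2 columns of nB differed by less than the sampling noise and were counted as 1 library, which leaves 2 in nB.

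The proteasome degrades proteins that carry ubiquitin chains. Its 20S core is a barrel of alpha and beta rings with the active sites inside, and the 19S regulatory particle at its ends binds ubiquitin, unfolds the substrate with a ring of ATPases, and threads it into the core. Cells of the immune system can build an immunoproteasome, in which the catalytic subunits *Psmb5*, *Psmb6* and *Psmb7* are replaced by *Psmb8*, *Psmb9* and *Psmb10*, a set that is induced by interferon and whose products are peptides for presentation on MHC class I. Plasmablasts make and secrete large amounts of antibody, and proteasome inhibitors are used against their malignant counterpart, multiple myeloma.

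Promoter sequences were read for the catalytic subunits, *Psmb7* excepted, and for the activator *Psme4*, the genes on which the comparisons below turn. RefSeq, on GRCm38.p6, gave a promoter for 40 of the 48 proteasome genes, and each of the windows below was found unchanged in mm9, whose coordinates are given. A window holds 190 bases before the start site and 10 bases from it, 5′ to 3′ on the strand of the gene. Capitals mark TGACNNNGC (the core of the antioxidant response element, which NFE2 family factors bind) in *Psmb5*, *Psmb6* and *Psme4*, CCGGAAG (ETS factors) also in *Psme4*, TTCNNNGAA (GAS, the gamma-interferon activated site) in *Psmb8* and CCAAT in *Psmb9*, on either strand. The window of *Psmb10* holds none of these letters, nor the core of the interferon-stimulated response element, which IRF factors bind and which was searched as well.

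*Psmb5*, chr14:55236823-55237022, minus strand: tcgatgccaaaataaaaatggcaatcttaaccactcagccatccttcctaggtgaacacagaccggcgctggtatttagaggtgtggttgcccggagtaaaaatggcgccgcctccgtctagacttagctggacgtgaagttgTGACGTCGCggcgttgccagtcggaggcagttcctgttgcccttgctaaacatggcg
*Psmb6*, chr11:70338669-70338868, plus strand: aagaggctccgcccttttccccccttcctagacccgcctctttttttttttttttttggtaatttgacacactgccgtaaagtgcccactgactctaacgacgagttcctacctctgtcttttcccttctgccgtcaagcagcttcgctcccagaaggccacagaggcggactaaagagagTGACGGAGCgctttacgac
*Psme4*, chr11:30671585-30671784, plus strand: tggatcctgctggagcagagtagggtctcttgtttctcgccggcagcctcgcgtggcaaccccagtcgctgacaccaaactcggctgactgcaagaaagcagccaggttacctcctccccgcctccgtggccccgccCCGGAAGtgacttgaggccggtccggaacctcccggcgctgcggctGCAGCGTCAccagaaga
*Psmb8*, chr17:34334950-34335149, plus strand: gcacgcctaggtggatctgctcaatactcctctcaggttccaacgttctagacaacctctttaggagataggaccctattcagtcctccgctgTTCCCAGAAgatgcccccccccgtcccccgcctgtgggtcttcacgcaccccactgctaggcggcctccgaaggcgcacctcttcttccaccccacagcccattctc
*Psmb9*, chr17:34324266-34324465, minus strand: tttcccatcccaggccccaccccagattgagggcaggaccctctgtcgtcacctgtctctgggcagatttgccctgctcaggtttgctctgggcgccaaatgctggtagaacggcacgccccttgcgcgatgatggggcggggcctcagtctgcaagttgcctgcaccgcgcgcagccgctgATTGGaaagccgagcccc
*Psmb10*, chr8:108462283-108462482, minus strand: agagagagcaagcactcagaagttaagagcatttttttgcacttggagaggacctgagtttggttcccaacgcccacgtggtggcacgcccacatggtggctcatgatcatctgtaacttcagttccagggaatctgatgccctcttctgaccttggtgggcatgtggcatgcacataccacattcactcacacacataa

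In the full 300 bases that RefSeq gave for each gene, TGACNNNGC was found in 6 of the 40 promoters of proteasome genes (15%), those of *Psmb5*, *Psmb6*, *Psmc6*, *Psmd9*, *Psmd12* and *Psme4*, against 15.1% of 8572 promoters of genes tested below. GAS was present in 7.5% against 7.23%, CCAAT in 35% against 39.7%, the IRF element in 12.5% against 3.29%, and CCGGAAG in 32.5% against 19.9%. *Psmb9* lies head to head with *Tap1*, the gene of the peptide transporter, with 225 bases between their RefSeq start sites. In the annotation used below for overlaps, *Psmb9* extends to base 34324709, past the *Tap1* start site at 34324501. *Psmb8* begins there at base 34334666, upstream of its window, so these promoters depend on the annotation.

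The libraries held 19421830 to 26307413 reads in genes. Values are given as RPKM, the deposited RPM (reads scaled to a library total of 1000000) divided by the gene length in kilobases, and a count of 0 allows up to 3 reads, or 0.114 to 0.154 RPM. The B cell markers *Cd79a*, *Cd79b*, *Ms4a1* and *Pax5* had a mean of at least 1 RPKM in all groups. The 5 B cell markers listed summed to 3076 to 3204 RPKM in nB, 1645 to 1880 in actB with DMSO and 903 to 926 in Pb with DMSO. The 5 plasmablast markers summed to 214 to 231 RPKM in nB, 485 to 522 in actB with DMSO and 3065 to 3215 in Pb with DMSO. All 5 had a mean of at least 1 RPKM in nB and Pb, and 4 of them in actB. The nB libraries also held all 7 myeloid markers, summing to 185 to 230 RPKM and led by *Lyz2* at 152 and 180.4, and all 6 T and NK cell markers, summing to 22.5 to 24.3. In the cultured groups the T and NK markers summed to at most 0.653 RPKM and the myeloid markers to at most 14.2, which were mostly *Itgam* in actB, and the neutrophil gene *S100a8* was at 0 in all of them, so each difference from nB below goes with lower levels of these markers, whose part in it was not tested. *Itgam* was the exception, with a mean of 4.27 RPKM in actB with DMSO and 9.95 with GSK343 against 4.02 in nB. In bulk samples, fewer cells of a type and less RNA per cell cannot be told apart. Replicate 2 stood apart in the cultured groups: 34 of the 47 proteasome-symbol genes tested were lowest there in all 4 groups, against 17.6% of all genes tested, and counts of calls are also given without it.

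The summed reads of the 48 proteasome genes were 4031 and 4049 RPM in nB, 6555 to 7426 in actB with DMSO, and 6355 to 6964 in Pb with DMSO. With GSK343, they were 6613 to 7547 in actB and 6709 to 7169 in Pb. The cultured libraries all lay above nB, and actB and Pb overlapped. The deposited gene length was 0.355 to 2.88 times that of the longest annotated transcript among the members, so an order of levels between genes depends on the length used, while a comparison of 1 gene between groups does not. Per deposited length, the core alpha ring subunits had mean levels from 46.3 RPKM (*Psma5*) to 105 (*Psma2*) in nB, and from 112 (*Psma1*) to 206 (*Psma6*) in actB with DMSO. In actB with DMSO, the activator *Psme1* (298 ± 7.76, SD, n = 3) was the most abundant with either length, followed by *Psmb8* and *Psmb9* per deposited length but by *Psme2* and *Psma7* per transcript length. In Pb with DMSO, *Psmb8* was first per deposited length and *Psma7* per transcript length. Among the low genes per deposited length were the 20S and 19S chaperones and *Psmf1*, an inhibitor of the core. *Psmf1* had means of 7.57 to 8.71 RPKM in the groups. The activator *Psme4* was also low, with means of 9.96 RPKM in nB and 15.4 in actB with DMSO. *Psma8*, the germline alpha subunit, and *Psmb11*, the catalytic subunit of the thymic cortex, were at most 0.223 and 0.424 RPKM in any library, and were the 2 members too low to test.

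**Figure D1:**
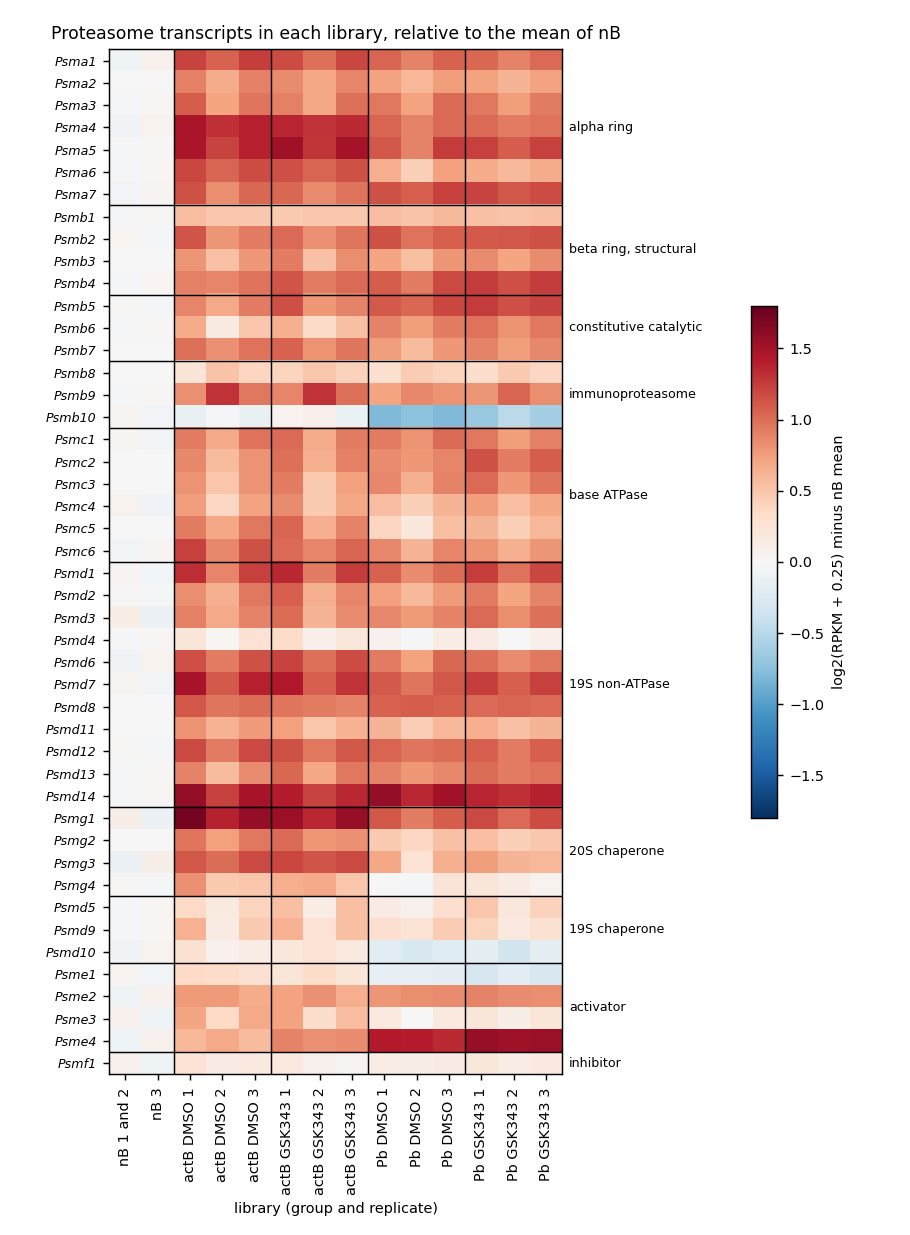
Heat map of log2(RPKM + 0.25) of 46 proteasome genes (rows, by role) in the 14 libraries (columns, by group), relative to the mean of nB, which is white, with red above and blue below it. Nearly every row turns red in actB, while *Psmb10*, *Psmd10* and *Psme1* are blue in Pb.

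Activation was addressed by comparing actB with DMSO to nB. The transcripts of nearly the whole particle were higher in actB: 44 of the 47 genes tested rose and none fell, against 40.9% of all genes higher and 36.3% lower (limma, adjusted p under 0.05 over 11299 genes). Their median log2 fold change was 0.83, and that of all genes was 0.053. All 14 subunits of the constitutive core rose, by 0.44 to 1.39 on the log2 scale. The groups overlapped in *Psmb10* alone, but nB had 2 libraries and the share of all genes without overlap was not computed, so this is no trait of the set. Without replicate 2, 46 genes rose, beside 4797 of all 11299 genes higher and 4297 lower. In actB with GSK343 against nB, 45 rose, against 42.4% of all genes higher and 33.9% lower.

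The alpha ring, the gate of the core, rose in 7 of 7 genes with a median log2 fold change of 1.14. *Psma4* led it, with 74.5 and 80.8 RPKM in nB and 215, 193 and 206 in actB, a log2 fold change of 1.39 ± 0.063 (SE, adjusted p = 6.87e-10, limma). The 4 structural beta subunits, which carry no active site, rose by 0.51 to 0.95. The 6 base ATPases, which unfold substrates, rose by 0.62 (*Psmc4*) to 1.08 (*Psmc6*). Of 11 non-ATPase subunits of the 19S particle, 10 rose, with a median of 1.03.

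*Psmd14*, the deubiquitinase that removes ubiquitin chains from substrates, had one of the largest changes among the subunits. Its level was 50.3 and 51.4 RPKM in nB and 154, 119.6 and 143 in actB, a log2 fold change of 1.43 ± 0.096 (SE, adjusted p = 2.97e-08). *Psmd4*, a ubiquitin receptor, was the exception in this particle. It had 31.2 and 32.0 RPKM in nB against 36.7, 32.4 and 38.0 in actB, a difference of 0.17 ± 0.083 that did not pass the test (adjusted p = 0.0773). In actB with GSK343 against nB, limma called *Psmd4* higher (0.21, adjusted p = 0.0388).

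The 20S chaperones *Psmg1* to *Psmg4*, which assemble the alpha ring, all rose. *Psmg1* had the largest rise of any proteasome gene, from 11.7 and 10.1 RPKM in nB to 36.3, 28.7 and 33.1 in actB, which is 2.95-fold on the log2(RPKM + 0.25) scale used for all folds (log2 1.56 ± 0.11, adjusted p = 3.65e-08). The 19S chaperones moved less: *Psmd5* rose by 0.31 (adjusted p = 0.0404) and *Psmd9* by 0.42 (adjusted p = 0.0143), and *Psmd10* (gankyrin) had a difference of 0.16 (adjusted p = 0.0611). *Psmd10* was called higher by limma in actB with GSK343 against nB (0.21, adjusted p = 0.0209). Among the regulators, *Psme1* rose by 0.32, *Psme2* by 0.73, *Psme3* by 0.59, *Psme4* by 0.61 and the inhibitor *Psmf1* by 0.20 (adjusted p = 0.014). Single libraries or settings decided 3 of these calls. Under median scaling, quantile normalization and edgeR with TMM or RLE factors the adjusted p was 0.0934, 0.0793, 0.0874 and 0.166 for *Psmf1*, and 0.0856, 0.0873, 0.0905 and 0.117 for *Psmd5*. *Psmf1* was also not called in the GSK343 libraries (adjusted p = 0.162) or with the compared groups alone (adjusted p = 0.0807), and *Psmd5* not with no filter on expression (adjusted p = 0.0563). Without actB replicate 1, the adjusted p was 0.0522 for *Psmf1*, 0.0932 for *Psmd5* and 0.0572 for *Psmd9*. Without nB replicate 3 it was 0.158 for *Psmf1* and 0.093 for *Psmd5*, without the other nB library 0.165 for *Psmd5* and 0.0834 for *Psmd9*, and without actB replicate 3 0.111 for *Psmd5*. *Psmc3ip* rose 4.68-fold, from 2.79 and 3.04 RPKM to 18.1, 11.0 and 15.5, more than any proteasome gene here.

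**Figure D2:**
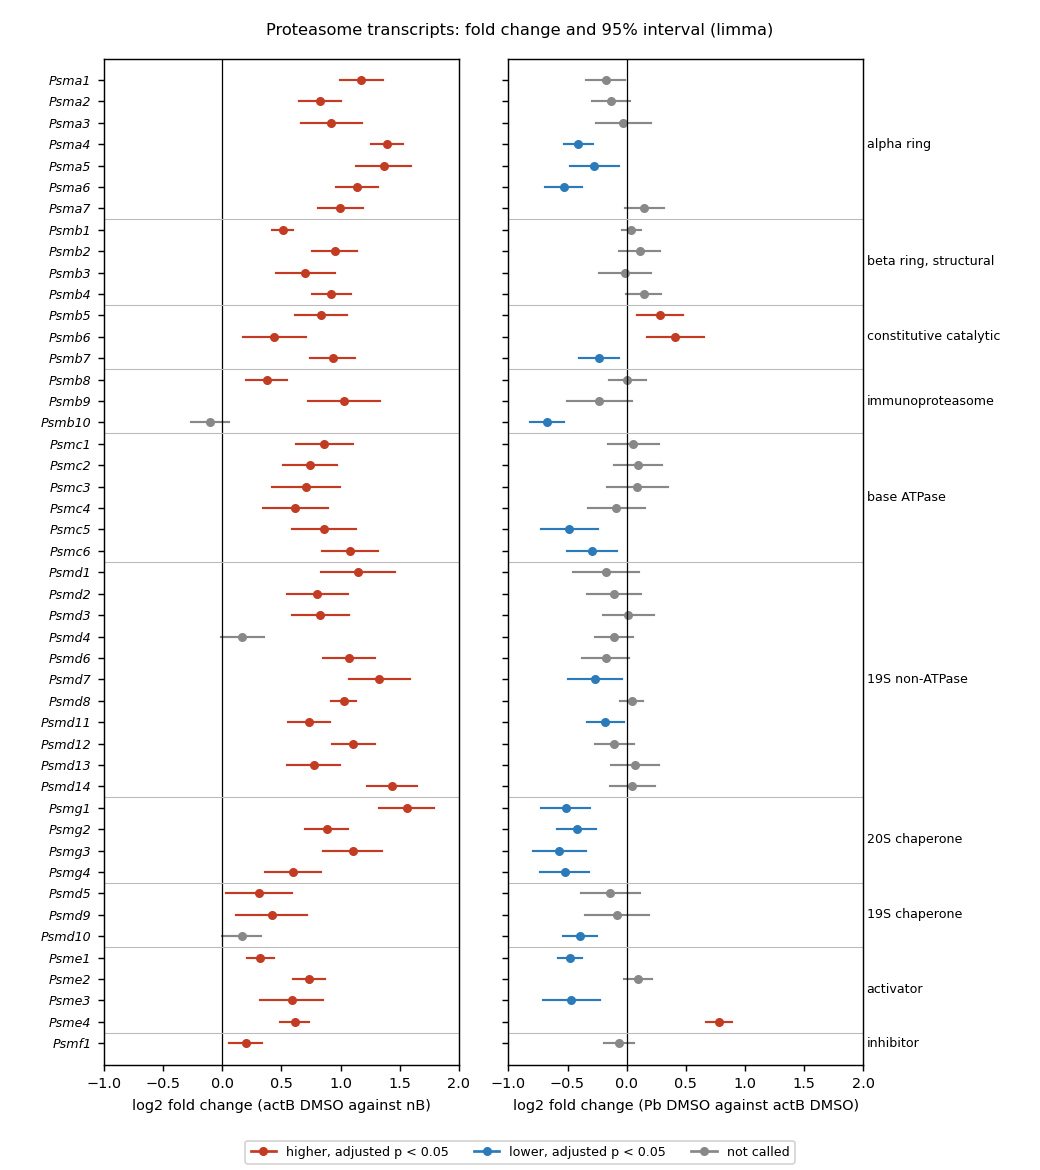
Log2 fold change (x axis) with its 95% interval for 46 proteasome genes (y axis, by role) in actB against nB (left) and Pb against actB (right), all with DMSO, from limma. On the left nearly all points lie right of 0, and on the right most intervals are near 0, with *Psme4*, *Psmb6* and *Psmb5* above and the 20S chaperones, *Psmb10* and *Psme1* among those below.

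The catalytic subunits were then compared one by one, since each immunoproteasome subunit takes the place of a constitutive partner. The ratio of a pair of genes depends on their lengths, which for *Psmb7* were 3289 bases as deposited and 1160 for the transcript, so each ratio is given both ways. A change of length shifts a ratio by the same amount in every group. *Psmb8* had 193 and 191 RPKM in nB and its partner *Psmb5* 46.6 and 45.3, a mean log2 ratio of 2.06 ± 0.02 (SD, n = 2). For *Psmb9* (116 and 119) and *Psmb6* (68.1 and 70.3) the mean log2 ratio was 0.76 ± 0.01, and for *Psmb10* (63.0 and 58.6) and *Psmb7* (22.1 and 21.8) it was 1.47 ± 0.06. With transcript lengths these ratios were 1.58, -0.36 and -0.036, so that in nB *Psmb8* alone was above its partner both ways.

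In actB with DMSO, *Psmb8* was at 225, 274 and 252 RPKM, a rise of 0.38 ± 0.08 (SE, adjusted p = 0.000919), and *Psmb5* at 85.0, 73.7 and 88.0, a rise of 0.83 ± 0.10 (adjusted p = 8.12e-06). *Psmb9* reached 208, 291 and 227 RPKM, with a rise of 1.03 ± 0.14 (adjusted p = 2.28e-05), and *Psmb6* 109.5, 77.5 and 97.9, with a rise of 0.44 ± 0.12 (adjusted p = 0.00582). *Psmb10* was at 55.1, 59.2 and 55.2 RPKM, where the groups overlapped (-0.10 ± 0.075, 95% interval -0.27 to 0.059, adjusted p = 0.221, but a fall with quantile normalization, adjusted p = 0.00983, and with edgeR and RLE factors, adjusted p = 0.0345), while *Psmb7* rose by 0.93 ± 0.087 to 44.1, 39.0 and 43.6 (adjusted p = 6.7e-07). The 3 immunoproteasome genes thus had different courses, and the log2 ratio to the partner was 1.61 ± 0.26 for *Psmb8*, 1.35 ± 0.50 for *Psmb9* and 0.42 ± 0.16 for *Psmb10* (SD, n = 3), or 1.12, 0.23 and -1.08 with transcript lengths. Replicate 2 had the highest *Psmb8* and *Psmb9* and the lowest *Psmb5* and *Psmb6* of the group. Exons of *Tap1* on the other strand overlap *Psmb9*, and as strand use in counting is not stated, reads of these genes may have been counted together.

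In Pb with DMSO against actB, 2 of the constitutive subunits rose further, *Psmb5* and *Psmb6*, and *Psmb7* fell. *Psmb5* had 98.6, 94.6 and 107 RPKM, above all actB libraries, a rise of 0.28 ± 0.091 against actB (SE, adjusted p = 0.0147). *Psmb6* had 129, 116 and 131, also without overlap, and rose by 0.41 ± 0.11 (adjusted p = 0.00536). *Psmb7* had 37.3, 32.8 and 37.9 and fell by 0.23 ± 0.078 (adjusted p = 0.0188).

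Of the immunoproteasome genes, *Psmb10* fell by 0.68 ± 0.067 to 34.8, 36.2 and 34.9 RPKM, below all actB libraries (adjusted p = 1.75e-06). *Psmb8*, at 234, 263 and 254 RPKM, overlapped actB (difference 0.0039, 95% interval -0.15 to 0.16, adjusted p = 0.968), and was called higher by edgeR with TMM factors and the replicate block alone (0.11, adjusted p = 0.0384). *Psmb9*, at 191, 215 and 206, had a difference of -0.23 with an interval of -0.50 to 0.043 (adjusted p = 0.12), which passed the test with the replicate number as a block (adjusted p = 0.00634). The log2 ratios in Pb with DMSO were 1.33 ± 0.13 for *Psmb8* to *Psmb5*, 0.70 ± 0.16 for *Psmb9* to *Psmb6*, and -0.025 ± 0.15 for *Psmb10* to *Psmb7* (SD, n = 3), or 0.84, -0.42 and -1.53 with transcript lengths. The ratios were described without a test. The rise of *Psmb5* did not pass without actB replicate 2 (adjusted p = 0.0634) or without Pb replicate 3 (adjusted p = 0.0604), and the fall of *Psmb7* not without actB replicate 1 (adjusted p = 0.067), actB replicate 3 (adjusted p = 0.0633) or Pb replicate 2 (adjusted p = 0.089), nor under median scaling (adjusted p = 0.159), with edgeR (adjusted p = 0.0552 with TMM and 0.149 with RLE factors) or in the GSK343 libraries (adjusted p = 0.263). With the replicate block *Psmb7* kept its call (adjusted p = 0.000157). A match of 98.97% identity to the *Psmb5* transcript lies elsewhere in the genome, where the counting could have split reads.

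**Figure D3:**
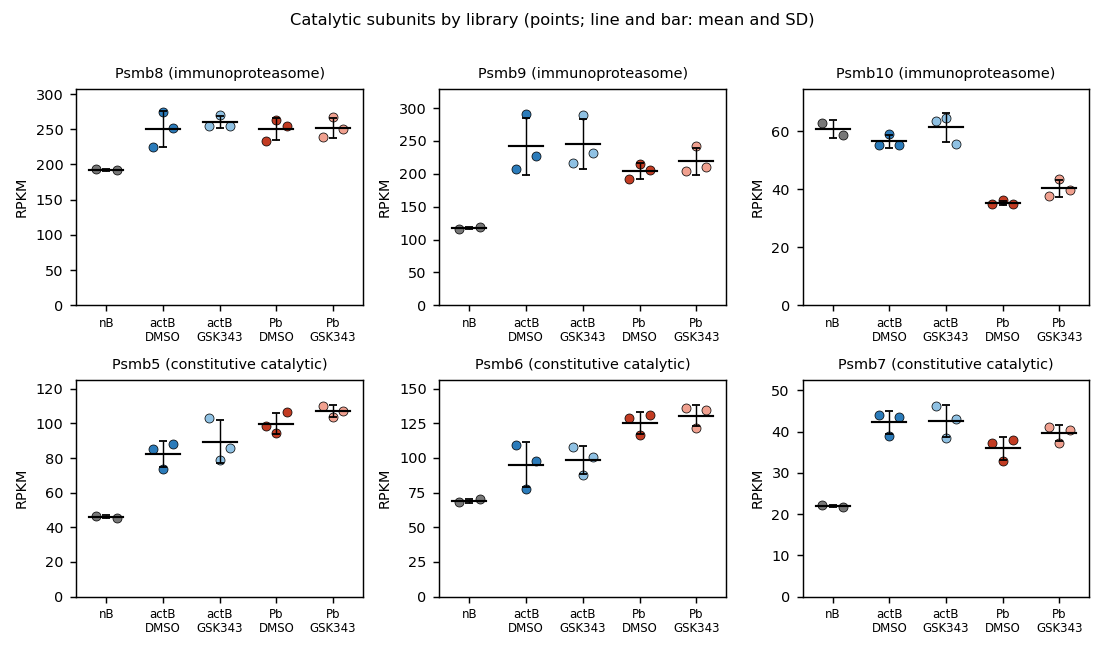
RPKM (y axis, from 0) of the immunoproteasome subunits (top) and their constitutive partners (bottom) by group (x axis), with 1 point per library (2 in nB, 3 elsewhere), the mean as a line and the SD as a bar. *Psmb10* is lowest in Pb, where *Psmb5* and *Psmb6* are highest.

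Across the whole set, Pb differed from actB in a minority of genes: 3 of 47 rose and 16 fell, against 27.3% of all genes higher and 42.4% lower. The median log2 fold change was -0.11, and that of all genes was -0.12. The split depended on the scaling. With each library scaled to its median gene, 9 rose and 11 fell, and with edgeR on recovered reads it was 7 and 13 (TMM factors) or 10 and 11 (RLE factors). The counts over all genes moved alike, from 3086 higher and 4791 lower as reported to 3813 and 3899 with median scaling, 3455 and 4264 with TMM and 3787 and 3904 with RLE factors. With the replicate block, 5 rose and 23 fell, against 30.1% and 46.1% of all genes, and the further genes that rose were *Psmb4* (adjusted p = 0.0192) and *Psma7* (adjusted p = 0.0156). Without actB replicate 1, 5 rose. Without replicate 2 in every cultured group, 4 rose and 23 fell, beside 3099 and 4808 of all 11299 genes. In the GSK343 libraries, 6 rose and 13 fell between actB and Pb, against 26.4% and 44.2% of all genes.

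*Psme4* (PA200), an activator that caps the core without ATP, had the largest rise. It was at 9.46 and 10.5 RPKM in nB, 15.2, 16.1 and 14.9 in actB with DMSO and 27.2, 26.8 and 25.7 in Pb with DMSO. No library of a later stage overlapped the stage before it. The rise from actB to Pb was 1.72-fold (log2 0.78 ± 0.051, adjusted p = 3.23e-08), and from nB to Pb 2.63-fold. All 20 alternatives kept the first call, with log2 fold changes from 0.69 to 0.90. Of the 6 genes whose promoters hold TGACNNNGC, *Psme4*, *Psmb6* and *Psmb5* rose from actB to Pb, and *Psmc6* fell (adjusted p = 0.0173). *Psmd12* had a difference of -0.11 that passed as a fall with the replicate block (adjusted p = 0.0335), and *Psmd9* had one of -0.084. Of these promoters, only those of the genes that rose are printed above, and a link of the motif to the changes was not tested.

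The other activators took a different course. *Psme1* (PA28 alpha), which with *Psme2* forms the interferon-inducible cap, was at 305, 299.8 and 289.9 RPKM in actB and 215, 215 and 211 in Pb, a fall of 0.48 ± 0.047 (adjusted p = 1.41e-06). *Psme2* was at 206, 205 and 192 in actB and 209, 216 and 219 in Pb, where the groups did not overlap but the difference of 0.096 did not pass (95% interval -0.022 to 0.21, adjusted p = 0.133). A near copy of *Psme2*, with 99.37% identity, lies elsewhere in the genome. *Psme3* (PA28 gamma), the nuclear cap, went from 122, 95.5 and 120.3 in actB to 84.3, 74.6 and 84.0 in Pb, a fall of 0.47 ± 0.11 (adjusted p = 0.00218). *Psmf1* was at 7.99 and 7.15 in nB, 9.14, 8.42 and 8.59 in actB and 8.31, 8.24 and 8.38 in Pb, with a difference from actB to Pb of -0.065 (adjusted p = 0.334).

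All 4 of the 20S chaperones fell in Pb against actB, with a median log2 fold change of -0.52. *Psmg3* fell most, from 18.6, 17.0 and 19.4 RPKM to 13.7, 10.1 and 13.2 (fall of 0.57 ± 0.10, adjusted p = 0.000316). *Psmg1* fell by 0.52 to 23.9, 20.9 and 23.4, *Psmg2* by 0.42, and *Psmg4* by 0.53 to 20.2, 20.1 and 24.0. None of them overlapped between actB and Pb, but the share of all genes without overlap was not computed, so this is no trait of the chaperones. *Psmg1* to *Psmg3* remained above nB in Pb, while *Psmg4* was at 20.3 ± 0.422 in nB (SD, n = 2) (difference from Pb 0.072, adjusted p = 0.552). Of the 19S chaperones, *Psmd10* fell by 0.39 ± 0.067 (adjusted p = 0.000182), with 14.5 and 15.9 RPKM in nB, 18.5, 16.1 and 16.6 in actB and 13.2, 12.5 and 13.1 in Pb, which lay below every library of nB and of actB with DMSO.

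**Figure D4:**
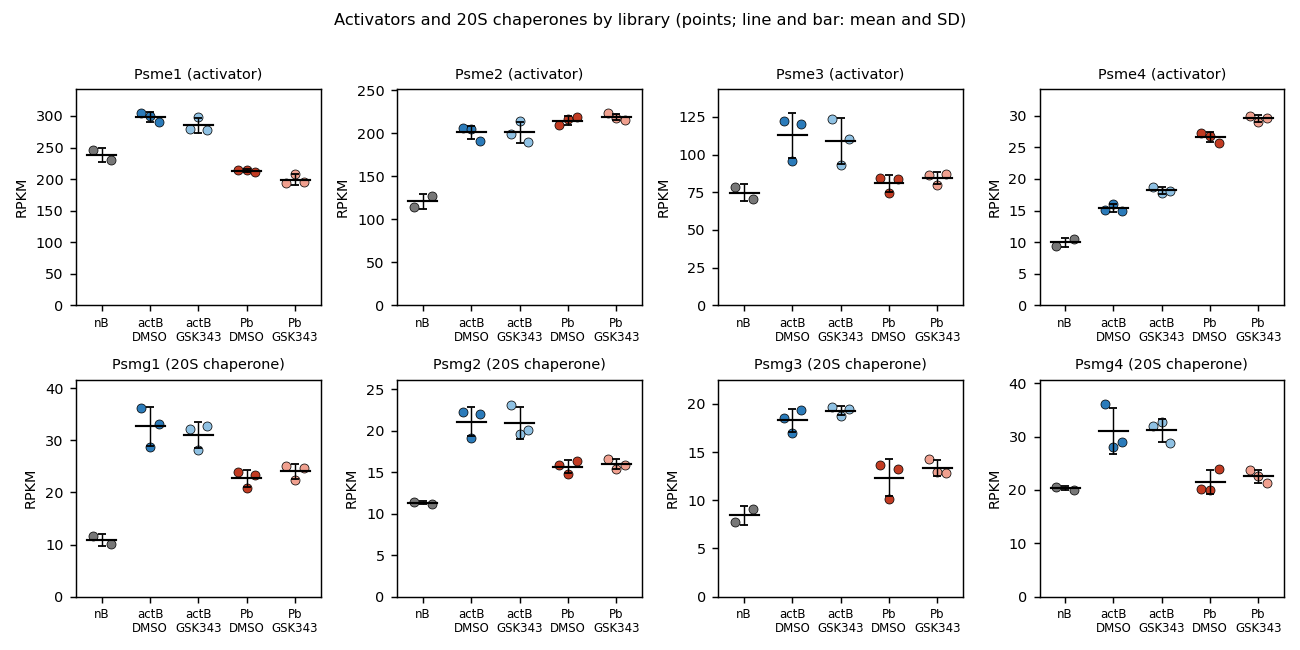
RPKM (y axis, from 0) of the activators *Psme1* to *Psme4* (top) and the chaperones *Psmg1* to *Psmg4* (bottom) by group (x axis), with 1 point per library (2 in nB, 3 elsewhere), the mean as a line and the SD as a bar. *Psme4* climbs at each stage to 25.7 to 27.2 RPKM in Pb with DMSO, whereas the chaperones peak in actB.

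Within the particle itself, the alpha ring held 3 of the falls, *Psma6* (0.53 ± 0.073, adjusted p = 3.06e-05), *Psma4* (0.41) and *Psma5* (0.27). *Psma6* went from 214, 193 and 211 RPKM in actB to 147, 125 and 156 in Pb, without overlap. None of the 4 structural beta subunits passed the test, with differences of -0.015 to 0.14. Of the 17 subunits of the 19S particle none rose and 4 fell, *Psmc5* by 0.49, *Psmc6* by 0.29, *Psmd7* by 0.27 and *Psmd11* by 0.18. The calls of *Psma5*, *Psmc6*, *Psmd7* and *Psmd11* were lost under median scaling (adjusted p = 0.112, 0.0909, 0.188 and 0.378). They were also lost with edgeR and RLE factors (0.109, 0.0763, 0.153 and 0.358) and with the compared groups alone (0.0628, 0.0654, 0.068 and 0.0682). *Psmd7* and *Psmd11* lost theirs with TMM factors (0.0728 and 0.133), in the GSK343 libraries (0.511 and 0.744) and with no filter (0.0621 and 0.0583), and *Psmd11* with quantile normalization (0.251). Those of all 4 were also lost without actB replicate 1 (adjusted p = 0.0802, 0.0787, 0.158 and 0.14), without actB replicate 3 (0.0596, 0.0602, 0.109 and 0.113) and without Pb replicate 2 (0.0998, 0.0836, 0.128 and 0.167), and that of *Psmd7* without Pb replicate 1 (0.0551) or 3 (0.0518). With the replicate block in limma all 4 kept their calls, and falls of *Psma1*, *Psma2*, *Psmd1*, *Psmd4*, *Psmd6* and *Psmd12* passed as well (adjusted p = 0.000191, 0.0035, 0.00819, 0.0487, 0.00261 and 0.0335). With edgeR, TMM factors and the block, *Psmd11* did not pass (adjusted p = 0.089). *Psmd14* remained high, at 152, 131 and 146 RPKM in Pb (difference from actB 0.049, 95% interval -0.14 to 0.24).

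Over the whole course from nB to Pb with DMSO, 39 of 47 genes rose and 3 fell, against 39.5% and 41.1% of all genes, with a median log2 fold change of 0.80. The 3 that fell were *Psmb10* (0.78 ± 0.075, adjusted p = 6.53e-07), *Psmd10* (0.23 ± 0.074, adjusted p = 0.0125) and *Psme1* (0.16 ± 0.052, adjusted p = 0.0135). The call of *Psme1* was lost under median scaling (adjusted p = 0.0745) and without the nB library of replicates 1 and 2 (adjusted p = 0.128), and that of *Psmd10* without nB replicate 3 (adjusted p = 0.123). After *Psmc3ip* (4.95-fold), the largest rises were in *Psmd14* (2.8-fold) and *Psme4* (2.63-fold). *Psmb5* rose 2.16-fold, *Psmb6* 1.81-fold, *Psmb7* 1.63-fold, *Psmb8* 1.3-fold and *Psmb9* 1.74-fold. This comparison shares its libraries with the other 2 and adds no independent evidence to them. Without replicate 2 of Pb and actB, 41 rose and 3 fell, beside 4660 of all 11299 genes higher and 4737 lower. Pb with GSK343 against nB gave 40 and 3, against 39.8% and 41% of all genes.

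Inhibition of EZH2 was addressed by comparing GSK343 with DMSO in each cell type. In actB, *Psme4* alone was called: it rose by 0.24 ± 0.051 (SE, adjusted p = 0.0108), from 15.2, 16.1 and 14.9 RPKM with DMSO to 18.8, 17.7 and 18.1 with GSK343, with no overlap. This is 1 of 47 genes higher and 0 lower, against 8.2% of all genes higher and 2.16% lower, and 2 of 47 had an unadjusted p under 0.05. The call was lost when actB with DMSO and with GSK343 were fitted alone (adjusted p = 0.0738). Without replicate 2 there was 1 call, beside 1179 of all 11299 genes higher and 561 lower. Markers moved between these groups too: the 5 plasmablast markers summed to 549 to 669 RPKM with GSK343 against 485 to 522 with DMSO, without overlap, and *Itgam* rose by 1.14 ± 0.19 (adjusted p = 0.00376), and their part in the rise of *Psme4* was not tested. edgeR with TMM factors also called 1 gene higher and 0 lower, beside 800 and 439 of all 10787 genes. With the replicate block, *Psmd11* was called lower as well (fall of 0.11, adjusted p = 0.0381), against 14.7% of all genes higher and 6.24% lower.

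In Pb, limma called 0 of 47 genes, against 7.9% of all genes higher and 5% lower, and 4 had an unadjusted p under 0.05. edgeR with TMM factors called 0 as well, beside 857 of all 10787 genes higher and 638 lower. *Psme4* was at 30.0, 29.0 and 29.7 RPKM with GSK343, above all 3 DMSO libraries (difference 0.15 ± 0.051, adjusted p = 0.0688). *Psmb10* was at 37.6, 43.5 and 39.9, also above all DMSO libraries (0.19 ± 0.067, adjusted p = 0.0893). With the replicate block, 7 genes were called higher and 0 lower, against 13.6% and 10.7% of all genes. They were *Psmc2* (0.21, adjusted p = 0.00993), *Psmd5* (0.20), *Psmb10* (adjusted p = 0.0239), *Psmd1* (0.17), *Psmb4* (0.16), *Psme4* (adjusted p = 0.0228) and *Psmb7* (0.14). Without replicate 2, 3 genes were called higher and 1 lower, beside 1127 and 850 of all 11299 genes. The B cell markers summed to 745 to 877 RPKM in Pb with GSK343 against 903 to 926 with DMSO, without overlap. The part of these markers in the differences was not tested.

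The other catalytic subunits gave intervals that bound the effect of GSK343. In actB the 95% intervals were -0.096 to 0.22 for *Psmb8*, -0.25 to 0.30 for *Psmb9*, -0.082 to 0.31 for *Psmb5*, -0.18 to 0.31 for *Psmb6* and -0.16 to 0.18 for *Psmb7*. In Pb they were -0.15 to 0.16, -0.18 to 0.37, -0.097 to 0.30, -0.18 to 0.30 and -0.029 to 0.31 in the same order. The log2 ratios to the partner with GSK343 were 1.55 ± 0.24 (*Psmb8*), 1.31 ± 0.37 (*Psmb9*) and 0.53 ± 0.20 (*Psmb10*) in actB, and 1.23 ± 0.13, 0.74 ± 0.22 and 0.024 ± 0.18 in Pb (SD, n = 3), per deposited length. The effects in Pb and actB were tested for a difference by an interaction term. Of the 47 genes, limma called 0, against 0.0974% of all genes higher and 0.15% lower, and 0 had an unadjusted p under 0.05. edgeR with TMM factors called 0 as well, beside 14 higher and 16 lower of all 10787 genes. Without replicate 2, limma also called 0, beside 42 and 104 of all 11299 genes. For *Psme4* the difference of effects was -0.09 (95% interval -0.25 to 0.066, adjusted p = 0.862).

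**Figure D5:**
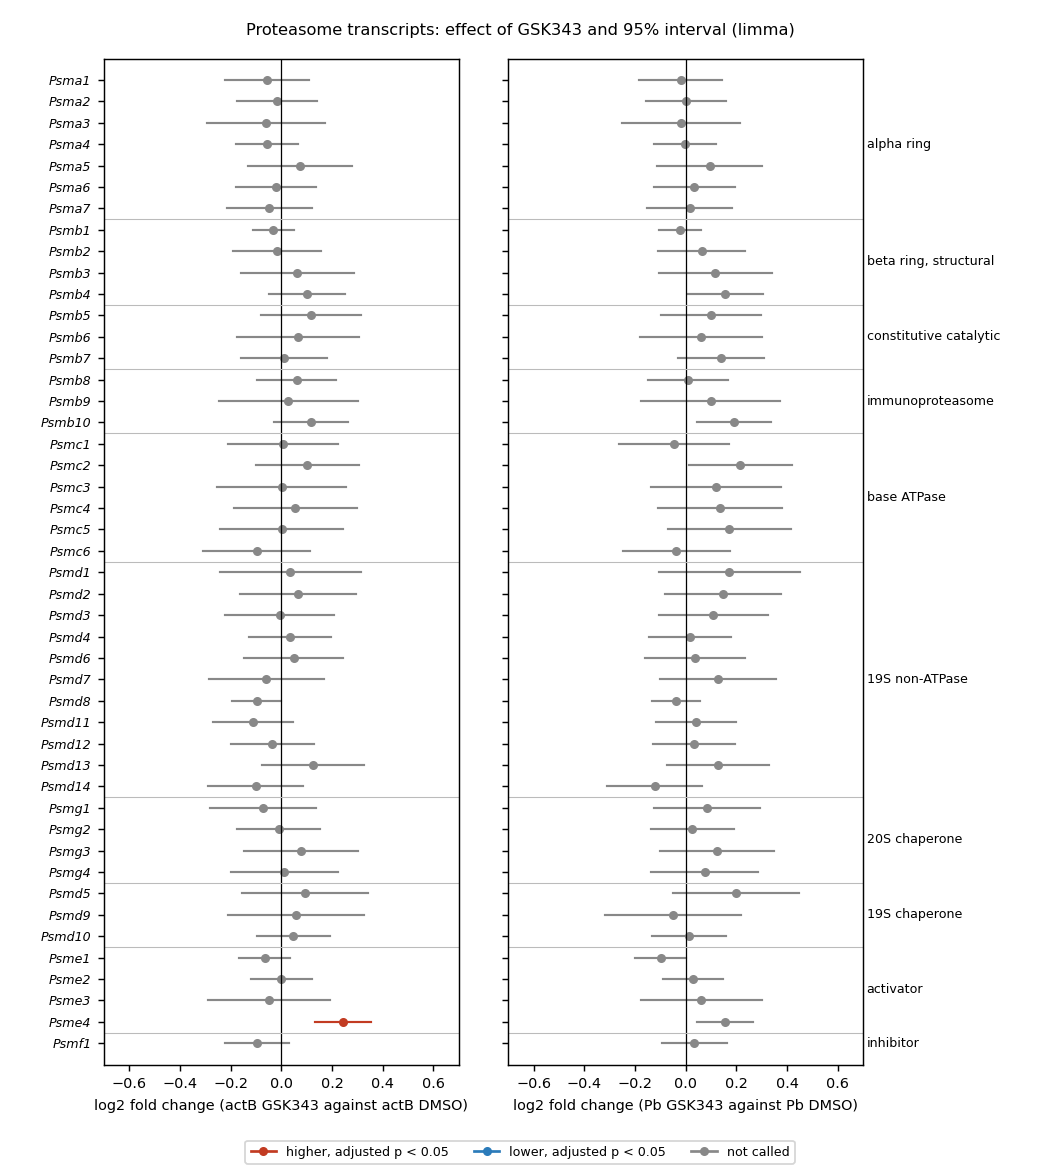
Log2 fold change with GSK343 against DMSO (x axis) and its 95% interval for 46 proteasome genes (y axis, by role) in actB (left) and Pb (right), from limma. *Psme4* in actB is the gene called, and most other intervals include 0.

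Genes that work with the proteasome were listed apart. Of 13 partners, 7 rose and 4 fell in actB against nB, and 5 rose and 3 fell in Pb against actB, beside 40.9% of all genes higher and 36.3% lower in the first comparison and 27.3% and 42.4% in the second. *Pomp*, the maturation factor of the core, went with it, at 15.2 and 16.0 RPKM in nB, 31.2, 28.1 and 30.6 in actB and 30.3, 27.9 and 32.8 in Pb. The deubiquitinases *Usp14* and *Uchl5*, which bind the 19S particle, rose by 1.07 and 1.16 in actB and fell by 0.59 and 0.63 in Pb. *Txnl1*, a thioredoxin of the 19S particle, rose in both steps, by 1.39 and 0.37.

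*Nfe2l1*, the transcription factor of proteasome genes, and the enzymes that activate its protein rose from actB to Pb. *Nfe2l1* was at 26.3, 22.6 and 24.8 RPKM in actB and 31.9, 30.6 and 29.6 in Pb (rise of 0.32 ± 0.061, adjusted p = 0.00045), and did not pass in actB against nB (-0.073, adjusted p = 0.339). *Ngly1*, the glycanase that acts on it, was at 6.39, 6.46 and 6.37 in actB and 13.3, 13.2 and 13.1 in Pb (rise of 1.02 ± 0.056, adjusted p = 7.42e-09). *Ddi2*, the protease that cleaves it, rose by 0.36 (adjusted p = 0.00149). A link of these rises to the changes of the proteasome genes was not tested. *Nfe2l2*, the factor of the oxidative stress response, fell in both steps, by 0.95 and 0.32.

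Of 13 genes of MHC class I presentation, 8 rose and 0 fell in actB against nB (40.9% and 36.3% of all genes), led by *Nlrc5*, the transactivator of class I genes, at 19.9 ± 0.145 RPKM in nB (SD, n = 2) and 52.4, 78.3 and 56.9 in actB (rise of 1.62 ± 0.18, adjusted p = 3.95e-06). *Tap1* rose by 0.74 ± 0.14 (adjusted p = 0.000305). In Pb against actB, 7 rose and 2 fell (27.3% and 42.4% of all genes): the chaperones *Calr* and *Pdia3* rose by 1.21 and 0.92, *H2-K1* and *H2-D1* by 0.72 and 0.70, and *B2m* by 0.57 (adjusted p = 0.00149). *Tap1* had a difference of -0.21 (adjusted p = 0.15).

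Among 14 genes of ubiquitin, its activation and its shuttles, 7 rose and 5 fell in actB against nB (40.9% and 36.3% of all genes), and 8 rose and 2 fell in Pb against actB (27.3% and 42.4%). *Vcp*, the unfoldase that delivers substrates, rose by 0.94 and again by 0.56, and its cofactors *Nploc4* and *Ufd1l* rose by 0.59 and 0.56 in Pb. The polyubiquitin gene *Ubb* fell by 0.24 in actB and rose by 0.39 in Pb. With GSK343, 1 of the 13 partners, *Ngly1*, was called in actB (rise of 0.19, adjusted p = 0.0477) and 0 in Pb. For comparison, limma called 8.2% of all genes up and 2.16% down with the drug in actB. The shares for Pb were 7.9% up and 5% down.

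Reads of some members could be shared with other loci. Another genomic match of at least 95% identity over most of the transcript was found for 6 of the 49 genes (*Psma4*, *Psma5*, *Psmb3*, *Psmb5*, *Psmd11* and *Psme2*), and exons of another gene overlap 11 on the other strand and 2 on the same strand (*Psmb5* and *Psmd1*).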

How the data were processed

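Libraries of poly(A) RNA were read from both ends, 50 bases each. The authors aligned the reads to mm9 with TopHat2 (version not given in the sources used here) and counted them per UCSC Known Gene with GenomicRanges 1.22.4, and whether strand was used is not stated. The deposited values are RPM, reads scaled to a total of 1000000 per library, unpooled. Whole reads were recovered at a tolerance of 0.001 RPM for 99.7% or more of the values of each library. RPKM was computed from the RPM and the deposited gene length, and 92 genes without a symbol (at most 0.0905% of reads) were left out.

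The main test was limma 3.58.1 (R 4.3.3) with a trended variance on log2(RPKM + 0.25), over the 11299 genes that reached 1 RPKM in 3 or more of the 15 columns, in 14 libraries with 9 residual degrees of freedom. P-values were two-sided and adjusted by Benjamini-Hochberg over all genes tested, with calls under 0.05, and ± beside a log2 fold change is its SE. Fold changes on this scale understate the change of low genes. edgeR 4.0.16 on the recovered reads (10787 genes) was an alternative, which with TMM factors called 4207 genes higher and 4177 lower in actB against nB and 3455 higher and 4264 lower in Pb against actB. Scripts were tested on simulated data. The study describes the libraries of a cell type as biological replicates, but the nB columns 1 and 2 are 1 library. Floors cover counting error only.

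Replicate numbers, taken from the sample titles, were checked for pairing of the cultured samples. Deviations from the group means gave correlations between 0.158 and 0.502 (number 1), between 0.435 and 0.713 (number 2), and between 0.219 and 0.356 (number 3). Libraries with different numbers gave -0.603 to 0.370, which overlaps the ranges of numbers 1 and 3 but not that of number 2. The main test left the replicate numbers out. Genes named with values were the catalytic subunits, the activators, *Psmf1*, and up to 3 rises and 3 falls per comparison, the largest among genes called whose groups did not overlap and whose mean reached 2 RPKM. Other genes stand by role or list, and those singled out among them were chosen after their values were seen. The members, the lists and the tests were chosen with earlier results of these data known. Some genes of the lists are counted but not reported here by name.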

Additional observations from a re-analysis of the deposited data

How the results depend on the processing

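Alternatives covered the pseudocount, the filter on low values, the scaling, the replicate block, the samples fitted, edgeR and each left-out library. Of 2386 alternative values for single genes and ratios, 2231 kept direction and call, 75 lost and 11 gained a call, 51 changed sign and 18 ratios moved, 15 of them with transcript lengths, an alternative chosen after seeing the data. A single gene entered this tally for a comparison only if the main test called it there or if it was a catalytic subunit. Calls gained by any other gene are therefore not among the 11. The 51 leave out ratios that changed sign with transcript lengths, which were counted as moved. These were *Psmb9* to *Psmb6* in nB and both Pb groups, and *Psmb10* to *Psmb7* in every group but Pb with DMSO. The cause of the changes other than those with transcript lengths was not tested.

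In actB against nB, 1 gene was called lower with no filter, quantile normalization or edgeR with RLE factors, which was *Psmb10* with quantile normalization (-0.26) and RLE factors (-0.21), and it had a log2 difference of 0.011 in the GSK343 libraries. Over all genes, 6202 of 18752, 4451 of 11299 and 4331 of 10787 were lower with these settings. In Pb against actB, 9 genes were called higher with median scaling, 5 with the replicate block, 7 with edgeR and TMM factors, 10 with RLE factors, 6 in the GSK343 libraries and 15 with TMM factors and the replicate block, which called 31 in all. In the same order, 3813, 3400, 3455, 3787, 2978 and 4042 of all genes were higher, of 11299 with limma, 10787 with edgeR and 10708 with edgeR and the block. Leaving out single libraries gave 2 to 5 members higher. *Psmb8* there was at -0.084 with quantile normalization, -0.048 in the GSK343 libraries, 0.11 with TMM factors and the replicate block, and -0.072 to 0.073 with single libraries left out. In Pb against nB, 5 genes were called lower with no filter, beside 6875 of all 18752 genes.

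With GSK343 in actB, the replicate block gave 2 calls (1 lower), the compared groups alone 0, and edgeR with TMM factors and the replicate block 5 (4 lower). Over all genes these gave 1663 higher and 705 lower of 11299, 339 and 47 of 11299, and 1424 and 1496 of 10708. *Psmb9* was at -0.0063 with median scaling, -0.011 with TMM, -0.010 with RLE and -0.018 with TMM and the replicate block, and *Psmb7* at -0.023, -0.020, -0.021 and -0.033. With single libraries left out, *Psmb9* ranged over -0.095 to 0.17, *Psmb7* over -0.049 to 0.081, *Psmb6* over -0.074 to 0.18 and *Psmb8* over -0.015 to 0.13. In Pb, the replicate block gave 7 calls, all higher, TMM with the block 8, all higher, and leaving out replicate 2 everywhere 4 (3 higher, 1 lower). Over all genes these gave 1535 higher and 1205 lower of 11299, 1618 and 1414 of 10708, and 1127 and 850 of 11299. *Psmb8* in Pb was at -0.058 with quantile normalization, -0.0015 with TMM and -0.041 to 0.047 with single libraries left out.

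For the difference of the effects, *Psmb5* was at 0.013 with median scaling, 0.0015 with TMM, 0.0050 with RLE and 0.019 with TMM and the block, and *Psmb6* at 0.023, 0.027, 0.030 and 0.037, and at 0.052 without replicate 2. With single libraries left out, *Psmb5* ranged over -0.098 to 0.093, *Psmb6* over -0.11 to 0.13, *Psmb8* over -0.12 to 0.023 and *Psmb9* over -0.069 to 0.19. The log2 ratios in nB with quantile normalization were 2.11 for *Psmb8* to *Psmb5*, 0.79 for *Psmb9* to *Psmb6* and 1.56 for *Psmb10* to *Psmb7*, and with transcript lengths in nB, actB with DMSO, actB with GSK343, Pb with DMSO and Pb with GSK343 they were 1.58, 1.12, 1.06, 0.84 and 0.75 for *Psmb8*, -0.36, 0.23, 0.19, -0.42 and -0.38 for *Psmb9*, and -0.036, -1.08, -0.98, -1.53 and -1.48 for *Psmb10*. Per deposited length, *Psmb10* to *Psmb7* ranged over -0.11 to 0.023 in Pb with DMSO and -0.075 to 0.10 with GSK343 when single libraries were left out.

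The replicate block was fitted in the cultured libraries only, because 1 of the nB libraries carries 2 replicate numbers and comparisons with nB could not be blocked. With 2 libraries in nB and 3 in the other groups, small differences cannot be resolved.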

Other observations

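Replicate 2 had its own pattern within the set, which was chosen for description after its values were seen. Of the 47 genes tested, 34 (72.3%) were lowest in replicate 2 in all 4 cultured groups, against 17.6% of all 11299 genes. The genes highest in replicate 2 in all 4 groups were *Psmb8*, *Psmb9* and *Psmb10* (6.38%, against 12.5% of all genes), which are the 3 immunoproteasome subunits. Of the 13 genes of class I presentation, 8 (61.5%) were highest in replicate 2 in all 4 groups, among them *B2m*, *H2-D1*, *H2-K1*, *Nlrc5*, *Tap1*, *Tap2* and *Tapbp*. None of the 13 partners was, and 4 were lowest there.

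*Nlrc5*, the transactivator of class I genes, shows the size of this difference. Its level in replicates 1, 2 and 3 was 52.4, 78.3 and 56.9 RPKM in actB with DMSO, 47.2, 70.1 and 53.7 in actB with GSK343, 48.1, 62.7 and 55.7 in Pb with DMSO and 44.2, 52.8 and 45.1 in Pb with GSK343. Replicate 2 was the highest in each of these groups.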
